A study of Mus musculus with 4 samples.

Results

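Integrins are the receptors with which cells hold on to matrix and to each other, and 37 genes of this system were followed here in mouse T cells grown under Th9 conditions with and without TL1A. The genes were taken by name: 13 integrin alpha chains, 6 beta chains and 18 cytoplasmic adaptors, out of 23480 gene identifiers in the deposited files, and all 37 were found by their Entrez identifiers. RNA was sequenced in 4 libraries, 2 of the group labelled Th9+TLA1 and 2 of the group labelled Th9. Both groups were T cells in Th9 culture, and they differed by the cytokine that the labels write as TLA1 and the series title as TL1A, a ligand of the TNF superfamily, read here as the same protein. The mouse strain, age, organ of origin, dose and time in culture are not stated in the labels. Nor is it stated that replicates are separate animals or cultures; each p-value therefore measures library-to-library spread only, and that spread may be technical.

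An integrin at the cell surface is a pair of 1 alpha and 1 beta chain, and the pair sets the ligand. The pair encoded by Itgal and Itgb2 (LFA-1) binds ICAM-1 on other cells, Itga4 with Itgb7 guides lymphocytes to the gut, Itgae with Itgb7 binds E-cadherin of epithelium, and Itga3, Itga6 or Itga7 with Itgb1 bind laminins. Inside the cell, the GTPase Rap1 and its effector RIAM bring talin to the beta tail, kindlin-3 binds beside it, and vinculin, paxillin, zyxin and the complex of ILK, PINCH and parvin tie the receptor to actin.

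The reads counted in genes came to between 2979482 and 4041633 per library, and 3 reads, the limit that a count of 0 allows, corresponded to 0.742 to 1.01 CPM (read counts scaled to a common library total), a limit that covers counting error only. All 10 T cell markers had reads, with summed levels of 4472 and 4209 CPM in Th9+TLA1 and 3356 and 3813 CPM in Th9. Of these, Cd5 alone passed the limma test described below (2.19-fold higher in Th9+TLA1, limma adjusted p = 0.0204). Cd3e was fitted slightly lower, with a log2 fold change of -0.07. No read was found for any of the 4 neutrophil or 3 erythroid markers. Lyz2, Csf1r, Cd14 and Fcgr1 of the 6 macrophage and monocyte markers, Ncr1, Klre1 and Klrb1c of the 4 NK cell markers, and Ms4a1 and Pax5 of the 5 B cell markers were at 0 in all 4 libraries. The summed B cell markers came to 28.9 and 29.2 CPM in Th9+TLA1 and 10.4 and 12.9 CPM in Th9, most of it from Cd79b. The summed dendritic cell markers came to 13.8 and 8.76 CPM in Th9+TLA1 and 5.69 and 3.16 CPM in Th9, most of it from Zbtb46. Of the other dendritic cell markers, Clec9a and Siglech had no read. Flt3 had 5 and 5 reads in Th9+TLA1 and 1 and 0 in Th9, and Xcr1 0 and 0 in Th9+TLA1 and 0 and 1 in Th9. Cd68, a macrophage marker, had 7.72 and 4.54 CPM in Th9+TLA1 and 0.990 and 1.58 CPM in Th9. Adgre1, the other macrophage marker with reads, went the other way. It had 0 and 0 CPM in Th9+TLA1 and 1.98 and 0.316 CPM in Th9, from 8 and 1 reads. The part of these markers in the results was not tested. In bulk RNA, a smaller share of cells with a transcript and less of it per cell cannot be told apart.

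With TL1A, 2 alpha chains of laminin receptors rose. Itga3 rose 7.34-fold and Itga7 2.34-fold, and no beta chain or adaptor passed the test. The chains of LFA-1, Itgal and Itgb2, had log2 fold changes of -0.06 and -0.11. Of the 37 genes, 29 had enough reads to be tested with limma on log2(CPM + 1), and 2 of these were called at an adjusted p under 0.05, both higher in Th9+TLA1, a share of 6.90%. Among all 10324 tested genes the share called was 1.14%, with 0.891% called higher and 0.252% called lower. By limma 0 of the 29 were called lower. An unadjusted limma p under 0.05 was reached by 7 of the 29, 5 higher and 2 lower, and by 16.7% of all tested genes. On the recovered reads, edgeR and DESeq2 also called 2 higher and 0 lower, against 1.56% of all tested genes called by edgeR and 2.64% by DESeq2 in either direction. The median log2 fold change of the 29 was 0.06, against -0.01 over all tested genes, with 15 fitted above and 14 below 0.

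**Figure D1:**
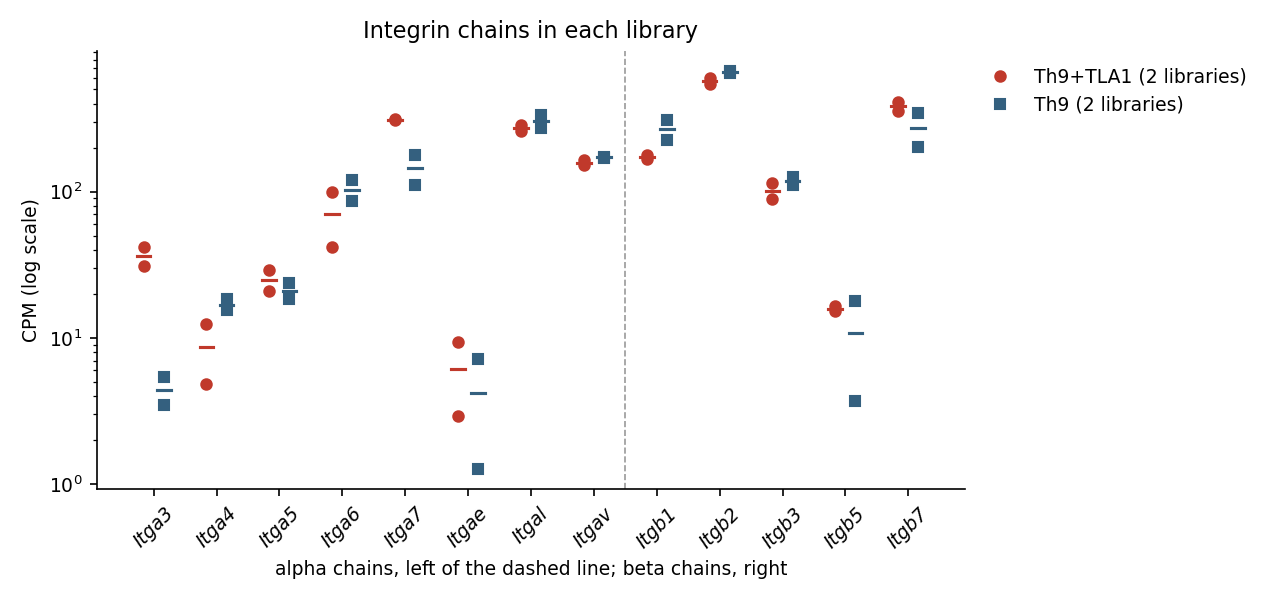
CPM (vertical axis, log scale) of the 13 tested integrin chains in each library, Th9+TLA1 as circles left of Th9 as squares, with a bar at each group's mean. Itga3 and Itga7 have both Th9+TLA1 libraries above both Th9 libraries, while Itgal and Itgb3 overlap between the groups.

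Itga3 (Entrez 16400, chromosome 11, 95044475 to 95076844 of mm10, minus strand) encodes the alpha chain of a laminin receptor best known from epithelium. It had 41.6 and 31.2 CPM in the Th9+TLA1 libraries and 3.46 and 5.37 CPM in the Th9 libraries, from 124 and 96 reads in Th9+TLA1 and 14 and 17 reads in Th9. Both Th9+TLA1 values lay far above both Th9 values. The log2 fold change was 2.88 ± 0.47 (SE, limma adjusted p = 0.0134), with a 95% interval of 1.86 to 3.89. Leaving out Th9 replicate 1 (limma adjusted p = 0.0504) or replicate 2 (0.102), or using no filter on low values (0.0707), ended the call, while the log2 fold change stayed between 2.58 and 3.18 whichever library was left out. No exon of another annotated gene overlaps its exons.

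Itga3 had the largest fitted fold change of the 29 tested members, and the series title names BATF and BATF3, factors of the AP-1 family, so the 2 windows that RefSeq (GRCm38.p6) lists at its transcript starts are shown, each from 250 bases before to 50 bases after a start, 5′ to 3′ on the minus strand. The upstream window is chr11:95076665-95076964, with 66.7% G and C, and the one inside the gene is chr11:95069149-95069448, with 52.3%. The start in the upstream window lies a little inside the gene's own 5′ limit, given above as 95076844. Capitals mark TGANTCA, a relaxed AP-1 motif searched on both strands, which includes the canonical TGACTCA.
Itga3 upstream start: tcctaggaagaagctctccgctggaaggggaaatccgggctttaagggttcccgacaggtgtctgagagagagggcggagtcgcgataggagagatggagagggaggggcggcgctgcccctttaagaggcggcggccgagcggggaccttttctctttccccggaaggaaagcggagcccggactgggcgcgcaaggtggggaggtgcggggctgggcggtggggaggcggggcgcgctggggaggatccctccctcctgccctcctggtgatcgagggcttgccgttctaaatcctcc
Itga3 internal start: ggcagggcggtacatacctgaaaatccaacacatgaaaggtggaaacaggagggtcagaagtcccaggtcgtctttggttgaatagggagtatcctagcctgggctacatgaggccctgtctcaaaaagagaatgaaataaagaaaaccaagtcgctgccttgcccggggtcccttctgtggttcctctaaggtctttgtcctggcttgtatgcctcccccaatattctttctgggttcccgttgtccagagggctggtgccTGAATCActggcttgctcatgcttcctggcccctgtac
The upstream window holds no TGANTCA, and the internal window holds it 1 time, as TGAATCA starting at base 263, after the transcript start. TGACTCA, whose other strand reads TGAGTCA, is in neither. TGANTCA is found in 7.81% and TGACTCA in 5.2% of the 32851 promoter windows in the table. Counted by gene, with any window sufficing, 4 of the 25 members with a window hold TGANTCA, namely Itga3, Itga9, Itgax and Zyx, and 2425 of 27025 genes in the table do (8.97%). Itga7 had no window there, so it could not be searched. The match describes letters, not binding.

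Itga7 (Entrez 16404, chromosome 10, 128933421 to 128958286 of mm10, plus strand) encodes the alpha chain of the laminin receptor of skeletal muscle. It had 313 and 309 CPM in Th9+TLA1 and 110.4 and 179 CPM in Th9. The Th9+TLA1 libraries lay close together and above the Th9 libraries, which lay apart from each other. The log2 fold change was 1.23 ± 0.24 (SE, limma adjusted p = 0.0329), with a 95% interval of 0.71 to 1.75. The call did not hold without Th9 replicate 1 (log2 fold change 0.83, limma adjusted p = 0.112), without Th9 replicate 2 (1.63, 0.0616), without Th9+TLA1 replicate 2 (1.25, 0.0812), with total-count scaling (1.14, 0.0646) and without a filter on low values (1.23, 0.0994). Its exons share 9 bases with Mettl7b, and the library kit does not mark strand.

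The other laminin and fibronectin receptor chains were not called. Itga6, which forms a laminin receptor with Itgb1, had 42.0 and 99.3 CPM in Th9+TLA1 and 86.1 and 120.3 CPM in Th9. The first Th9+TLA1 library stood well below the other 3. Its log2 fold change of -0.56 (95% interval -1.32 to 0.21, limma adjusted p = 0.460) became 0.05 without that library. Itga5, the alpha chain of the main fibronectin receptor, had 20.8 and 29.2 CPM in Th9+TLA1 and 23.8 and 18.3 CPM in Th9, with overlapping groups (limma adjusted p = 0.730).

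Itga4, shared by the VCAM-1 receptor and the gut-homing receptor, had 12.4 and 4.87 CPM in Th9+TLA1 and 18.3 and 15.5 CPM in Th9. Both Th9+TLA1 libraries were lower, but the log2 fold change, -0.92 ± 0.53, did not pass (SE, limma adjusted p = 0.411), with a 95% interval of -2.07 to 0.23. It was -0.32 without Th9+TLA1 replicate 2 and -1.53 without Th9+TLA1 replicate 1, and 1124 bases of its exons overlap Cerkl. Itgae, the alpha chain of the E-cadherin receptor, had 9.40 and 2.92 CPM in Th9+TLA1 and 7.18 and 1.26 CPM in Th9. In both groups the first library was the higher (limma adjusted p = 0.743).

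Itgal had 288 and 259 CPM in Th9+TLA1 and 337 and 274 CPM in Th9, with overlapping groups. Its log2 fold change was -0.06, with a 95% interval of -0.45 to 0.33 (limma adjusted p = 0.906). Itgav, the alpha chain of the vitronectin receptors, had 151 and 164 CPM in Th9+TLA1 and 171 and 173 CPM in Th9, lower in both Th9+TLA1 libraries, and a log2 fold change of -0.03 after scaling, with an interval of -0.44 to 0.37. A difference inside these intervals is not excluded, and the intervals are not limits of detection. The other 5 alpha chains were below the filter. Itga1, of a collagen receptor, had 0 reads in all libraries, and Itga2, of another collagen receptor, 0 and 1 reads in Th9+TLA1 and 0 and 1 reads in Th9. Itga9, of a tenascin receptor, had 16 and 0 reads in Th9+TLA1 and 7 and 0 reads in Th9. The chains of the myeloid integrins were nearly unread: Itgam had 0 and 0 reads in Th9+TLA1 and 1 and 0 reads in Th9, and Itgax 5 and 0 reads in Th9+TLA1 and 0 and 0 reads in Th9.

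None of the beta chains passed the test. Itgb1, the partner of most alpha chains, had 166 and 178 CPM in Th9+TLA1 and 310.02 and 225 CPM in Th9. Both Th9+TLA1 libraries were lower, and the log2 fold change was -0.52 ± 0.19 (SE, limma adjusted p = 0.210), with a 95% interval of -0.95 to -0.10. Itgb7, the partner of Itga4 and Itgae, had 354 and 414 CPM in Th9+TLA1 and 203 and 346 CPM in Th9. Its lower Th9+TLA1 value lay just above the higher Th9 value, and the log2 fold change was 0.62 ± 0.25 (SE, limma adjusted p = 0.239), or 0.19 without Th9 replicate 1 and 1.06 without Th9 replicate 2. Itgb2, the beta chain of the leukocyte integrins, had 603 and 548 CPM in Th9+TLA1 and 653 and 673 CPM in Th9, a log2 fold change of -0.11 (95% interval -0.48 to 0.26).

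Itgb3 had 89.3 and 114 CPM in Th9+TLA1 and 126 and 112 CPM in Th9, with overlapping groups (limma adjusted p = 0.801). Itgb5, another partner of Itgav, had 16.4 and 15.3 CPM in Th9+TLA1 and 3.71 and 18.0 CPM in Th9. Only the first Th9 library was low, and without it the log2 fold change of 0.91 became -0.13. There was no read of Itgb8, whose product with Itgav activates latent TGF-beta. Among the 5 tested beta chains, 0 were called by limma (1 higher and 1 lower had an unadjusted p under 0.05), and 0 by edgeR or DESeq2. Over all tested genes, limma called 1.14%, and 16.7% had an unadjusted p under 0.05.

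**Figure D2:**
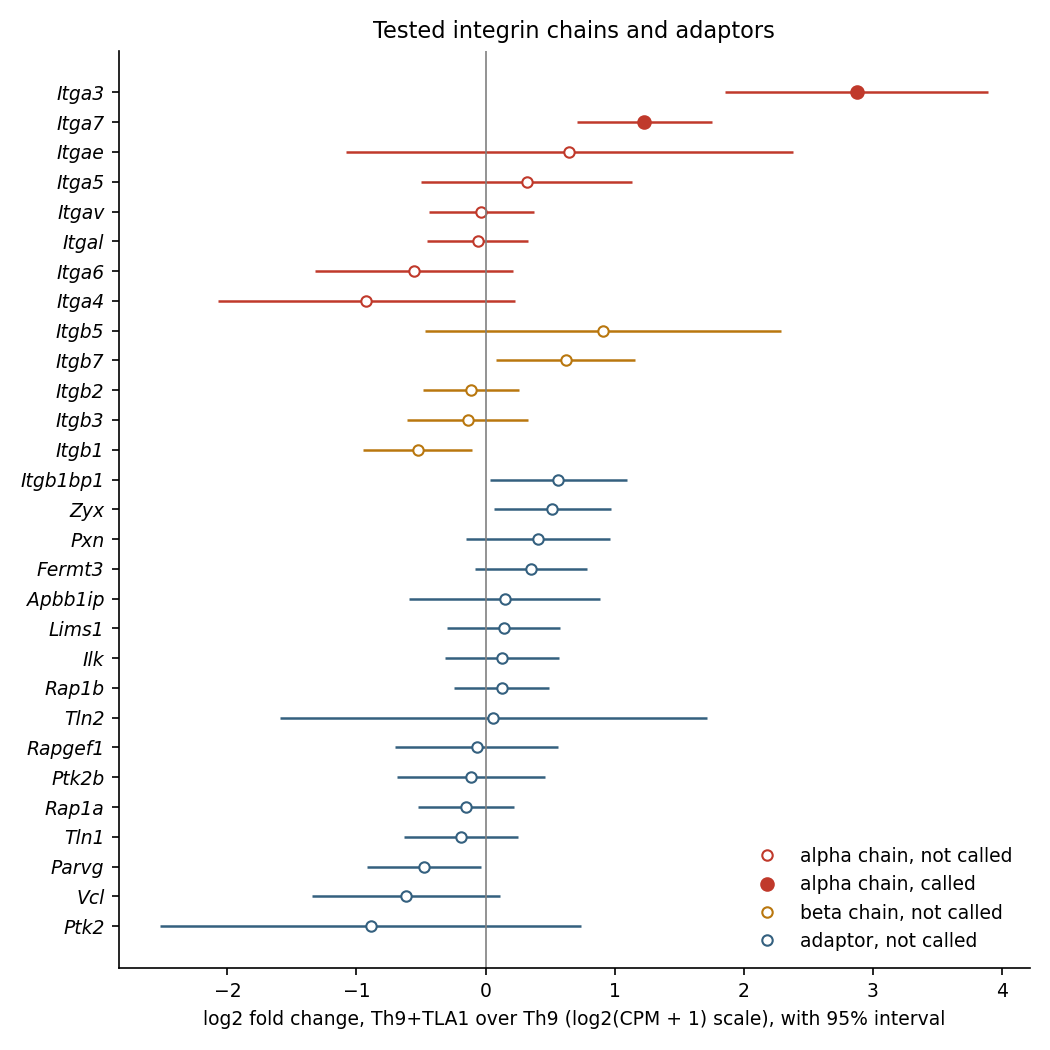
Log2 fold change of Th9+TLA1 over Th9 (horizontal axis, log2(CPM + 1) scale) with its 95% interval for the 29 tested members, by role; filled points were called at an adjusted p under 0.05. Itga3 at 2.88 and Itga7 at 1.23 are the 2 filled points, and all 5 beta chains and 16 adaptors are open.

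Levels of different genes were compared per kilobase of summed exons. The beta chains ran in the order Itgb2, Itgb7, Itgb1, Itgb3 and Itgb5 in both groups, with mean levels of 189, 139, 42.2, 17.2 and 4.46 CPM per kilobase in Th9+TLA1 and of 217, 99.1, 65.6, 20.1 and 3.05 CPM per kilobase in Th9. Among alpha chains the mean level of Itgal was 41.6 CPM per kilobase in Th9+TLA1 and 46.5 in Th9, that of Itga7 was 38.4 in Th9+TLA1 and 17.9 in Th9, and that of Itgav was 14.7 in Th9+TLA1 and 15.98 in Th9. The mean level of Itga3 was 6.37 CPM per kilobase in Th9+TLA1, between the means of Itga6 at 7.83 and Itga5 at 5.07. In Th9 its mean was 0.773, below Itga4 at 1.21 and Itgae at 0.921. In neither Th9+TLA1 library did Itga3 itself lie between Itga6 and Itga5. There Itga3 had 7.29 and 5.46, Itga6 4.65 and 11.0, and Itga5 4.22 and 5.92 CPM per kilobase. Over the libraries, the ranges of the neighbours Itgb7 and Itgb1, Itga7 and Itgav, Itga6 and Itga5, and Itga6 and Itga3 overlapped. So did those of Itga5 and Itga3, Itga3 and Itgae, and Itgae and Itga4. With the longest protein-coding transcript as the length, Itga7 stood above Itgal in Th9+TLA1 (77.3 against 52.3 CPM per kilobase) and below it in Th9 (36.0 against 58.5), and by the mean over the 4 libraries the order of the other chains did not change.

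Each alpha chain was then set against its beta partner within each library, after 1 CPM was added to both, so that the ratio of a low chain depends in part on that amount. Of 17 pairs, 11 had both chains tested. With 2 libraries against 2, the exact two-sided permutation test cannot give a p below 0.333, so it can call no ratio different. The log2 ratio of Itga7 to Itgb1 was -0.08 and -0.20 in Th9+TLA1 and -2.47 and -1.31 in Th9. The 2 groups did not overlap, and the ratio was 3.37-fold that of Th9 (exact permutation p = 0.333). The log2 ratio of Itga3 to Itgb1 was -2.46 and -2.96 in Th9+TLA1 and -6.61 and -5.63 in Th9, a 10.6-fold difference of the ratio (exact permutation p = 0.333). This log2 difference, 3.41, was 3.54 with 0.5 CPM added and 3.20 with 2 CPM added. In both pairs the alpha chain was higher and Itgb1 lower in both Th9+TLA1 libraries, so the ratio differed by more than either chain. The height of a ratio depends on the length used, though the difference between groups does not: with the longest transcripts, Itga7 had 77.3 CPM per kilobase in Th9+TLA1 and 36.0 in Th9, against 45.1 in Th9+TLA1 and 70.1 in Th9 for Itgb1.

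Itga5 against Itgb1 had log2 ratios of -3.21 and -2.84 in Th9+TLA1 and -3.92 and -3.82 in Th9, with no overlap. Itgav against Itgb1 had -1.53 and -1.51 in Th9+TLA1 and -2.25 and -1.78 in Th9. These pairs share their Itgb1 values with each other and with the pairs of Itga3 and Itga7. The log2 fold changes of the chains alone were 0.32 for Itga5, with overlapping groups, -0.03 for Itgav and -0.52 for Itgb1, none called. The groups overlapped for Itga6 against Itgb1, with -3.11 and -1.98 in Th9+TLA1 and -2.98 and -2.04 in Th9, and for Itga4 against Itgb1, with -5.42 and -6.71 in Th9+TLA1 and -5.79 and -5.56 in Th9. Against Itgb7, Itga4 had log2 ratios of -7.06 and -8.48 in Th9+TLA1 and -5.74 and -6.73 in Th9, so its level was below that of its partner in all libraries, and the groups did not overlap. Itgae against Itgb7 overlapped, with -5.82 and -7.45 in Th9+TLA1 and -5.37 and -7.99 in Th9. Neither Itgal against Itgb2 nor Itgav against Itgb3 separated the groups. Itgal against Itgb2 had -2.17 and -2.19 in Th9+TLA1 and -2.06 and -2.40 in Th9, and Itgav against Itgb3 had -0.11 and -0.34 in Th9+TLA1 and -0.43 and -0.24 in Th9. Itgav against Itgb5 had 1.53 and 1.75 in Th9+TLA1 and 3.59 and 1.596 in Th9, the first Th9 library standing apart.

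**Figure D3:**
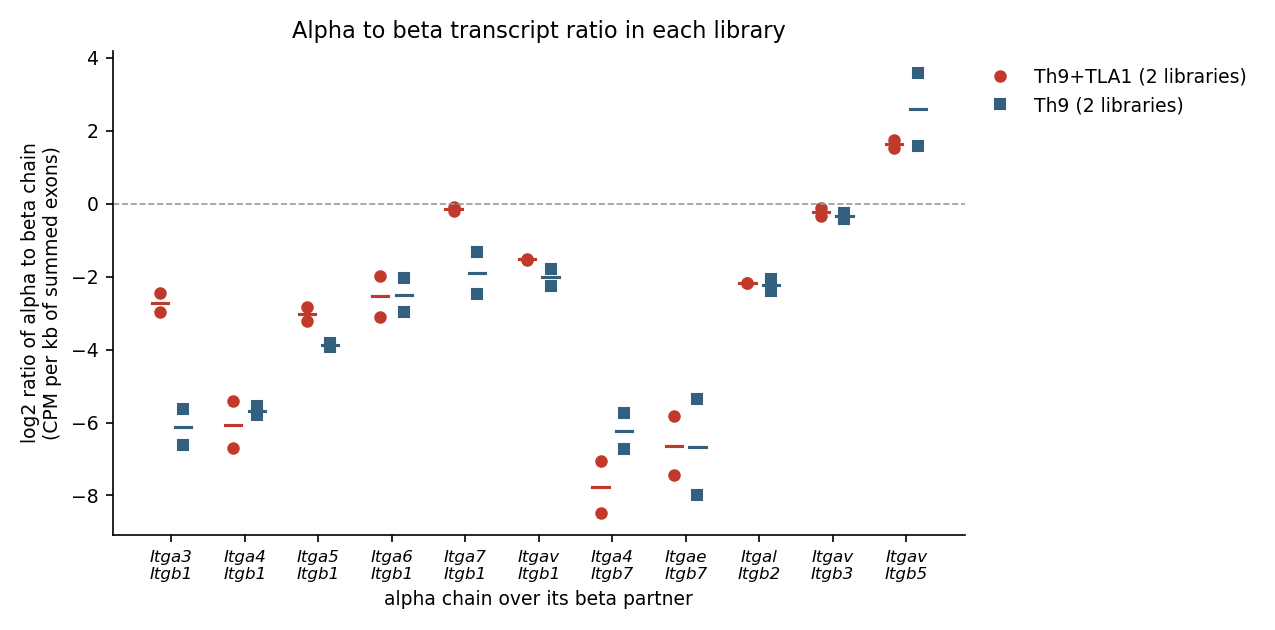
Log2 ratio of each alpha chain to its beta partner (vertical axis, from CPM per kilobase with 1 CPM added) in each library, for the 11 pairs with both chains tested, Th9+TLA1 as circles left of Th9 as squares, with a bar at each mean. Itga7 against Itgb1 sits near 0 in Th9+TLA1 and below -1 in Th9, and Itgal against Itgb2 sits near -2 in all 4 libraries.

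The values above can also be put as shares of the summed level of the alpha chains that can pair with Itgb1, which adds no separate evidence. The levels summed to 70.5 and 76.2 CPM per kilobase in Th9+TLA1 and 46.0 and 57.4 in Th9. Itga7 made up 54.8% and 50.1% of that sum in Th9+TLA1 and 29.6% and 38.6% in Th9, and Itga3 10.3% and 7.16% in Th9+TLA1 and 1.32% and 1.64% in Th9. The share of Itgav was 19.99% and 20.03% in Th9+TLA1 and 34.5% and 28.0% in Th9, and that of Itga6 was 6.59% and 14.4% in Th9+TLA1 and 20.7% and 23.2% in Th9. A share falls when the sum grows: the level of Itgav itself averaged 14.7 CPM per kilobase in Th9+TLA1 and 15.98 in Th9, with a log2 fold change of -0.03, while Itga7 averaged 38.4 in Th9+TLA1 and 17.9 in Th9. These are shares of transcripts, and Itgav also pairs with other beta chains. The shares also depend on the length used. With the longest protein-coding transcript, Itga7 made up 62.6% and 56.2% in Th9+TLA1 and 34.4% and 42.9% in Th9. Itga3 then made up 6.88% and 4.69% in Th9+TLA1 and 0.892% and 1.06% in Th9.

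The adaptors that join integrins to actin were spread on both sides of 0, and none was called. Among the 18, there was no read of Parva or Parvb, the parvins of other tissues. Of the other 16, 0 were called by limma (1.14% of all tested genes), 0 by edgeR and 0 by DESeq2. An unadjusted limma p under 0.05 was reached by 3 (16.7% of all tested genes). At the membrane end, Tln1, which encodes talin 1, had 174 and 249.6 CPM in Th9+TLA1 and 254 and 254 CPM in Th9, and the first Th9+TLA1 library was the lowest. Tln2, which encodes its relative talin 2, had between 1.68 and 4.54 CPM in all libraries. Fermt3, which encodes kindlin-3 of blood cells, had 359 and 403 CPM in Th9+TLA1 and 276 and 365 CPM in Th9, with overlapping groups (log2 fold change 0.35, limma adjusted p = 0.403).

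Itgb1bp1, which encodes ICAP-1, an inhibitor that binds the Itgb1 tail, had 75.2 and 72.7 CPM in Th9+TLA1 and 58.4 and 48.0 CPM in Th9. Both Th9+TLA1 values were above both Th9 values, which gave 0.56 ± 0.24 on the log2 scale (SE, limma adjusted p = 0.269). Zyx, which encodes zyxin at actin fibre ends, had 183 and 144 CPM in Th9+TLA1 and 133 and 109.9 CPM in Th9, which gave 0.52 ± 0.21 on the log2 scale (SE, limma adjusted p = 0.243). Parvg, the parvin of blood cells, had 130.2 and 179 CPM in Th9+TLA1 and 233 and 220.4 CPM in Th9, which gave -0.48 ± 0.20 on the log2 scale (SE, limma adjusted p = 0.265). Its partners in one complex had nearly the same level in every library: Ilk had 109 and 105 CPM in Th9+TLA1 and 106 and 103 CPM in Th9, and Lims1, which encodes PINCH1, had 122 and 113 CPM in Th9+TLA1 and 120.2 and 106 CPM in Th9. Of the 2744 exon bases of Ilk, 2106 overlap Taf10, so its reads may not be its own. Shorter overlaps were 402 bases with Asap2 and 196 with Cpsf3 for Itgb1bp1, and 236 with Epha1 for Zyx. Tln1 shared 360 bases with Creb3, Fermt3 89 with Trpt1, Rapgef1 327 with Gm9823 and Itgav 634 with Gm13684.

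Vcl, which encodes vinculin, had 19.5 and 26.0 CPM in Th9+TLA1 and 39.8 and 35.05 CPM in Th9. The groups did not overlap, but the log2 fold change of -0.62 did not pass (limma adjusted p = 0.382), and 2090 of its exon bases overlap Ap3m1. Pxn, which encodes paxillin, had 76.5 and 74.6 CPM in Th9+TLA1 and 51.7 and 70.7 CPM in Th9 (log2 fold change 0.41, limma adjusted p = 0.459). Of the adhesion kinases, Ptk2, which encodes FAK, had 5.03 and 40.6 CPM in Th9+TLA1 and 18.3 and 49.3 CPM in Th9. The replicates of each group differed more than the groups did, and its log2 fold change of -0.89 became 0.50 without Th9+TLA1 replicate 1. Ptk2b, which encodes the related kinase PYK2, had 75.9 and 51.6 CPM in Th9+TLA1 and 69.8 and 74.5 CPM in Th9, with overlapping groups.

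No gene of the Rap1 branch, which switches integrins on from inside, was called. Rap1b had 522 and 569 CPM in Th9+TLA1 and 519 and 548 CPM in Th9, and its close relative Rap1a 320.2 and 293 CPM in Th9+TLA1 and 378 and 348 CPM in Th9. Their log2 fold changes were 0.12 (95% interval -0.25 to 0.49) and -0.15 (-0.52 to 0.22). How reads shared by such close relatives were counted is not stated in the labels. Apbb1ip, which encodes RIAM, had between 24.7 and 27.9 CPM in the 4 libraries, and Rapgef1, which encodes a Rap1 exchange factor, between 35.7 and 47.3 CPM.

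Counting all 29 tested members, the groups did not overlap in 14, or 48.3%, 6 higher and 8 lower in Th9+TLA1. Over all tested genes the groups did not overlap in 48.1%, with 19.1% higher and 29% lower, so the share among the members was that of the background. The replicates of a member differed by a median of 0.22 on the log2 scale in Th9+TLA1 and 0.27 in Th9, against 0.30 in Th9+TLA1 and 0.33 in Th9 over all tested genes.

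Further lists cover the genes around the integrins, chosen like the members with earlier results known. In the list of ligands, 9 of 31 genes had enough reads and 0 were called by limma, edgeR or DESeq2, with 6 at an unadjusted limma p under 0.05, 5 of them with a positive fold change (16.7% of all tested genes in either direction). Its median log2 fold change was 0.82, against -0.01 over all tested genes. Lgals3, which encodes the matrix lectin galectin-3, had 115 and 119 CPM in Th9+TLA1 and 45.03 and 77.7 CPM in Th9, and Icam1, the LFA-1 ligand, 112 and 109.7 CPM in Th9+TLA1 and 64.8 and 68.8 CPM in Th9, with limma adjusted p of 0.105 and 0.108. Lamc1, a chain of the laminins that Itga3 and Itga7 receptors bind, had 57.1 and 84.4 CPM in Th9+TLA1 and 43.5 and 36.9 CPM in Th9 (limma adjusted p = 0.158). Of the other laminin chains in the list, Lama5 had 21.8 and 10.1 CPM in Th9+TLA1 and 28.0 and 10.4 CPM in Th9, with overlapping groups and a log2 fold change of -0.11 (limma adjusted p = 0.952), and Lamb1 had no read. Fn1, which encodes fibronectin, had 1.01 and 0.974 CPM in Th9+TLA1 and 6.68 and 9.16 CPM in Th9 (limma adjusted p = 0.170). Lamc1, Lama5, Lamb1 and Fn1 were chosen after their values were seen.

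Of the list of tetraspanins and lateral partners, membrane proteins that travel beside integrins, 18 of 22 were tested, 16 had a positive fitted fold change and the median was 0.62. Cd53, a tetraspanin of leukocytes, rose 2.21-fold and was the 1 gene called by limma, 5.56% of those tested, against 1.14% of all tested genes. It had 1265 and 1164 CPM in Th9+TLA1 and 517 and 660.2 CPM in Th9 (log2 fold change 1.15 ± 0.19 SE, limma adjusted p = 0.0157). It was no longer called without Th9+TLA1 replicate 2 (limma adjusted p = 0.0763) or without a filter on low values (0.0709). Another 8 had an unadjusted limma p under 0.05, all with a positive fold change; over all tested genes 1722 reached it (16.7%), 882 higher and 840 lower. Bsg, which encodes basigin, was called as well by DESeq2 (adjusted p = 0.0251).

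Of 31 upstream activators and inhibitors 26 were tested, with a median log2 fold change of -0.22, and limma and edgeR called 0, with 3 at an unadjusted limma p under 0.05, against 16.7% of all tested genes. Cytip, whose product binds the integrin regulator cytohesin-1, had 1109.9 and 1050.2 CPM in Th9+TLA1 and 719 and 779 CPM in Th9 (limma adjusted p = 0.120), and DESeq2 called it (adjusted p = 0.0184). Stk4, which encodes the kinase MST1 of the Rap1 pathway, had 207 and 218 CPM in Th9+TLA1 and 326 and 284 CPM in Th9 (limma adjusted p = 0.255). Of 59 downstream kinases and actin regulators 52 were tested, with a median of 0.07. An unadjusted limma p under 0.05 was reached by 8 of them, against 16.7% of all tested genes. Limma called 1, or 1.92%, against 1.14% of all tested genes. Fyn, a Src family kinase of T cells, fell to 131 and 145 CPM in Th9+TLA1, against 302 and 249 CPM in Th9 (log2 fold change -0.90 ± 0.19 SE, limma adjusted p = 0.0413). No fit on 3 libraries called it (limma adjusted p from 0.109 to 0.217), and it was also not called without a filter on low values (0.0861) or by the older quasi-likelihood method of edgeR (0.0509). Arpc3, a subunit of the actin nucleator ARP2/3, was called by DESeq2 (adjusted p = 0.0363) and not by limma. The 8 integrin chain genes outside the members had at most 4 reads in any library and were not tested.

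**Figure D4:**
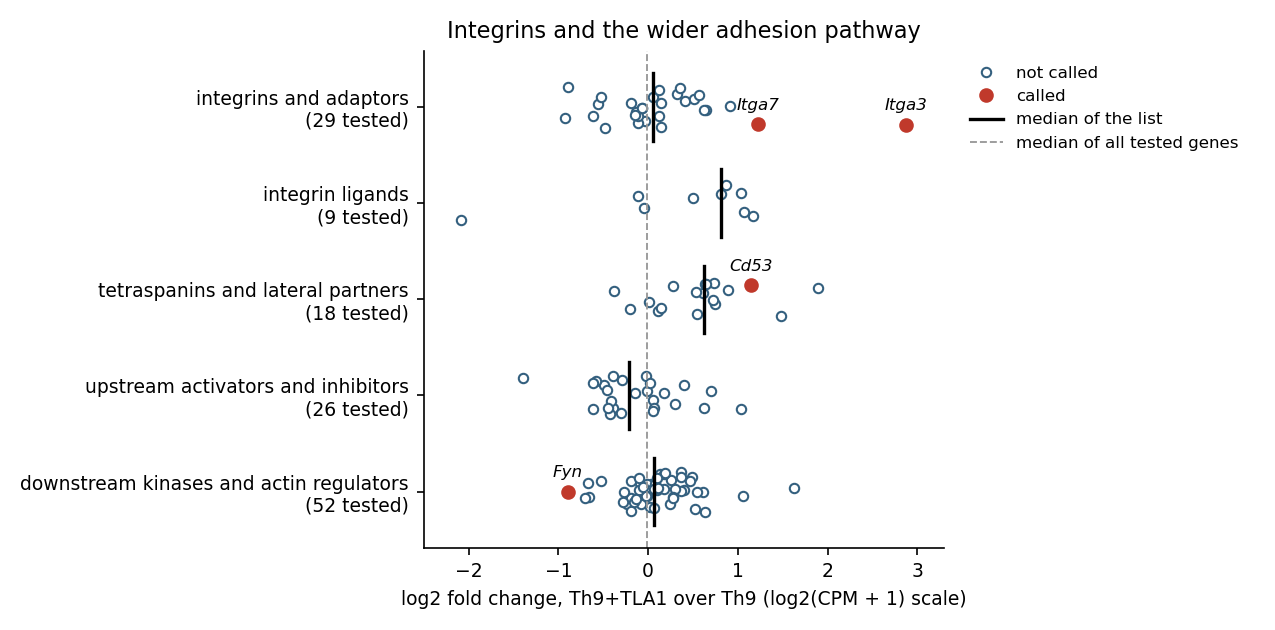
Log2 fold change of Th9+TLA1 over Th9 (horizontal axis, log2(CPM + 1) scale) of each tested gene in the integrin and adaptor list and in 4 lists around it, with each list's median as a black bar and the median of all tested genes as a dashed line; filled points were called. Itga3, Itga7, Cd53 and Fyn are the called genes, and the medians run from -0.22 for upstream regulators to 0.82 for ligands.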

How the data were processed

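Per the labels' protocols, total RNA of mouse T cells was turned into amplified cDNA with a low-input SMARTer kit, which does not mark strand, and read on an Ion Torrent machine. Tools named in the submitters' processing notes are edgeR and HTSeq 0.5.4, with mm10 as the build; for the aligner and annotation, nothing is given in the sources used here. The authors deposited CPM, 1 file per library. All non-zero values (100%) were whole multiples of 1 read within 0.01 of a read, so reads could be recovered. Symbols and coordinates came from RefSeq GRCm38.p6, the assembly of mm10 (23383 of 23480 identifiers matched), and exon lengths and overlaps from GENCODE M21.

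Genes passing filterByExpr on recovered reads (minimum count 10) numbered 10324. CPM were divided by TMM factors of 0.964 to 1.06, and limma (lmFit, eBayes with trend) was run on log2(CPM + 1) with the group as the term; p-values were Benjamini-Hochberg adjusted over all tested genes, with a threshold of 0.05. On this scale the fold of a low gene is understated. CPM in the text are those deposited, before TMM. EdgeR's quasi-likelihood test on the recovered reads called 161 genes. Members, lists and the rule for named genes (called members, members at an unadjusted p under 0.05, chains of tested pairs, the 3 most abundant per role, and up to 2 genes or all called genes per wider list) were chosen with earlier results of these data known; adaptors beyond that rule were added to account for all members. Diap1 and Fam49b of the lists, and Ly6g of the markers, matched no identifier under these symbols. Replicates were not copies of 1 library: chi-square per degree of freedom between them was 7.54 in Th9+TLA1 and 12.2 in Th9. The fit was tested on simulated data. Tables and figures used Python 3.11.15 (matplotlib 3.10.9, numpy 2.4.6, pandas 2.3.3), and fits used DESeq2 1.42.0, edgeR 4.0.16 and limma 3.58.1 in R 4.3.3. Alternatives were other scalings, filters and pseudocounts, edgeR, DESeq2, a replicate block and leaving out each library.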

Additional observations from a re-analysis of the deposited data

How the results depend on the processing

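Of the 118 genes called over all tested genes, the count became 73 with total-count scaling, 33 without a filter on low values, 273 with DESeq2, and between 19 (without Th9 replicate 2) and 155 (without Th9+TLA1 replicate 1) when 1 library was left out; it was 42 without Th9 replicate 1. The members called numbered 1 with total-count scaling, 0 without a filter (7 at an unadjusted limma p under 0.05), and 0 to 2 when 1 library was left out, with 0 without either Th9 library (4 and 7 at an unadjusted p under 0.05) and 1 without Th9+TLA1 replicate 2. The filter setting tests more genes, and leaving out a library leaves 1 sample in an arm, assumed to vary like the other group; otherwise the cause was not tested. With the replicate number as a block 225 genes and 2 members were called. Deviations of same-numbered libraries correlated at -0.011 over 10324 genes, so the numbers are not shown to pair the libraries. Itga3 and Itga7 stayed called with RLE and upper-quartile scaling, a minimum count of 30, pseudocounts of 0.5 and 2 CPM, edgeR, DESeq2 and the older edgeR method, the last chosen after seeing the data, as was the second transcript length.

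Signs turned for members that were not called. Tln2 was at -0.01 with total-count scaling. Over the left-out libraries the log2 fold change ran from -1.16 to 0.049 for Itga6, -0.23 to 1.53 for Itgae, -0.16 to 0.039 for Itgal, -0.088 to 0.031 for Itgav, -0.31 to 0.028 for Itgb3, -0.13 to 1.96 for Itgb5, -0.44 to 0.061 for Tln1, -0.47 to 0.58 for Tln2, -2.28 to 0.50 for Ptk2, -0.39 to 0.17 for Ptk2b and -0.27 to 0.14 for Rapgef1. The log2 ratio of Itga3 to Itgb1 differed between groups by 2.93 to 3.90 over the left-out libraries, and that of Itga7 to Itgb1 by 1.18 to 2.33.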
